A study of Mus musculus with 6 samples.

Results

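Transcripts of 9 genes of blood vessel endothelium and of the vascular endothelial growth factor (VEGF) pathway were followed in serrated polyps of the mouse cecum and in the tissue around them. The genes, Vegfa, Kdr, Flt1, Nrp1, Tek, Eng, Cdh5, Pecam1 and Vwf, were chosen by name, and each matched 1 of the 37991 Ensembl gene identifiers in the count tables. All 9 had counts, and 8 passed the filter on low counts that left 10960 genes for testing; Tek did not. Tissue came from 3 mice of the HBUS strain kept for 60 weeks. Each gave 1 serrated polyp and 1 piece of normal surrounding (distal) cecum, which makes 3 pairs and 6 libraries. The mice are named 1119, 1192 and 1199 in the labels. As background, this strain is known for a pair of transgenes expressed in the intestinal epithelium, the first encoding HB-EGF and the other US28, a chemokine receptor of viral origin, and for serrated polyps, lesions whose crypts have a saw-toothed outline. The surrounding tissue came from the same transgenic animals, so it is the normal-appearing neighbour of a polyp and not the cecum of a mouse without transgenes, and all 6 libraries share both transgenes. The comparison asked which transcripts differ between a polyp and its own surroundings.

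VEGF-A is the main growth factor for blood vessel sprouting and is secreted by epithelial, stromal and immune cells, more so when oxygen is low. It acts on endothelial cells through the receptor tyrosine kinase VEGFR2, encoded by Kdr, while VEGFR1, encoded by Flt1, binds the ligand more tightly with little kinase activity and can act as a trap for it. Neuropilin 1 (Nrp1) is a co-receptor for VEGF-A and for class 3 semaphorins and is also made by fibroblasts and immune cells. Tek encodes TIE2, the receptor for angiopoietins, and Eng encodes endoglin, a co-receptor for ligands of the BMP and TGF-beta family that is abundant on dividing endothelium. Cdh5 (VE-cadherin) and Pecam1 (CD31) encode adhesion proteins of endothelial junctions, CD31 being carried by platelets and many leukocytes too, and Vwf encodes the von Willebrand factor stored by endothelial cells and platelets.

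The libraries held between 6632645 (polyp, mouse 1199) and 13350119 (surrounding tissue, mouse 1192) counts, of which 2 mitochondrial rRNA genes took 46.3% to 75.3%. The unit of level is CPM, that is counts relative to each library's size as corrected for its composition, and 3 counts, used as a detection floor that covers counting error only, correspond to 0.214 to 0.676 CPM. The polyp library of mouse 1192 stood apart: it had counts for 12867 genes against 15045 to 17301 in the others, and 632 of the tested genes had at most 3 counts there. The next highest such number was 488, in surrounding tissue of mouse 1199, and the other libraries had 78 to 194. The samples were whole tissue, so fewer cells of a type and less RNA per cell cannot be told apart. With 1 sample of each tissue per mouse, the spread given is that between 3 animals.

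Promoter sequences matched 6 of the 9 genes in a RefSeq table of the GRCm38.p6 build (none for Vwf, Cdh5 and Pecam1), and those of the ligand, its 2 kinase receptors and endoglin are shown because the results set these 4 genes side by side. Each run is the 250 bases before the annotated start, with the letters GGAA, the core bound by ETS-family factors that many endothelial genes use, in capitals on either strand (GGAA or TTCC).
Vegfa (chr17:46032378-46032627, minus strand): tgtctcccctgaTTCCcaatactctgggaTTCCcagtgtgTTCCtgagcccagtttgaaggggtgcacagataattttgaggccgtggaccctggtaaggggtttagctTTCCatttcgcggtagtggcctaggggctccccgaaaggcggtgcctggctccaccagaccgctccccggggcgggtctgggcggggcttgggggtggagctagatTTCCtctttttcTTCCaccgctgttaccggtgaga
Kdr (chr5:75978456-75978705, minus strand): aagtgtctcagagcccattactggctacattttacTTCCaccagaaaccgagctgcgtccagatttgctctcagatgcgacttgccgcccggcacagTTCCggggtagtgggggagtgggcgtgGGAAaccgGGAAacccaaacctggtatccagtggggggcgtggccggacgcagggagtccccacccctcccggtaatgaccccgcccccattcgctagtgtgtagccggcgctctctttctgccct
Flt1 (chr5:147726012-147726261, minus strand): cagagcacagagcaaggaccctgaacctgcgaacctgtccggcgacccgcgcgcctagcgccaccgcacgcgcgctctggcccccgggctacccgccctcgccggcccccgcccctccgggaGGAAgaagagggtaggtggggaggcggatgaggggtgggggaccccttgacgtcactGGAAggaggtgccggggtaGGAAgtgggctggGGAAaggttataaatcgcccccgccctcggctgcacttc
Eng (chr2:32646345-32646594, plus strand): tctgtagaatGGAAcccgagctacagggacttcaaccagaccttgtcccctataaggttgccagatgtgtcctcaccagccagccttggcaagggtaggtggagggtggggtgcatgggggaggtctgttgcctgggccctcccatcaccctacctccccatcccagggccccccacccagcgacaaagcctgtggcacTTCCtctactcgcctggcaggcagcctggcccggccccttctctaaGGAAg
The table lists 2 starts for Vegfa, and the upstream one is shown. The core occurred 6 times before Vegfa, 4 times before Kdr, 4 times before Flt1 and 3 times before Eng. This is a frequent word: 93.4% of 32851 promoters of this length held it, with a median of 3 matches, and 33.4% held 4 or more. The HIF core, searched as ACGTG or GCGTG on both strands with overlapping matches counted apart, occurred 2 times before Kdr, 1 time before Flt1 and 0 times before Vegfa and Eng in these windows. The window before the other Vegfa start, 46025164 to 46025413 on the same chromosome and not shown, held the HIF core 2 times and GGAA 2 times. The next 20 bases after the start were found in a GENCODE M21 transcript for Kdr, Flt1 and Eng, but for neither Vegfa start. Whether the Vegfa window not shown acts as a promoter was not tested, so its HIF core matches are not read as promoter sites. The HIF core was present in 38.6% of all promoters. The word TATAAA was found before Flt1, 31 bases ahead of the start, and in 12.4% of all promoters. A match describes the letters alone, since the data hold no measurement of binding.

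None of the 8 tested genes passed the test across all genes, although all 8 had a positive log2 fold change of polyp over surrounding tissue. At a Benjamini-Hochberg adjusted p under 0.05 (quasi-likelihood test of edgeR, blocked by mouse), 0 of 8 were called, where 2.76% of all genes tested were called in either direction, 1.72% as higher and 1.04% as lower in polyps. DESeq2 and limma-voom also called 0 of the 8. At an unadjusted p under 0.05 the numbers were 4 (Vwf, Vegfa, Eng and Cdh5) with edgeR, 4 with DESeq2 and 5 with limma-voom. Of these genes, Cdh5 passed the filter on low counts through its polyps alone. That favours values above 0, so its place in the counts, median and range given here is no added support. With edgeR, 14.6% of all genes reached that level in either direction and 8.29% as higher in polyps. The median log2 fold change of the 8 genes was 1.08, against -0.02 for all genes tested. A positive log2 fold change was held by 48.4% of all genes. The fitted values of the 8 genes ran from 0.32 (Pecam1) to 1.99 (Cdh5).

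**Figure D1:**
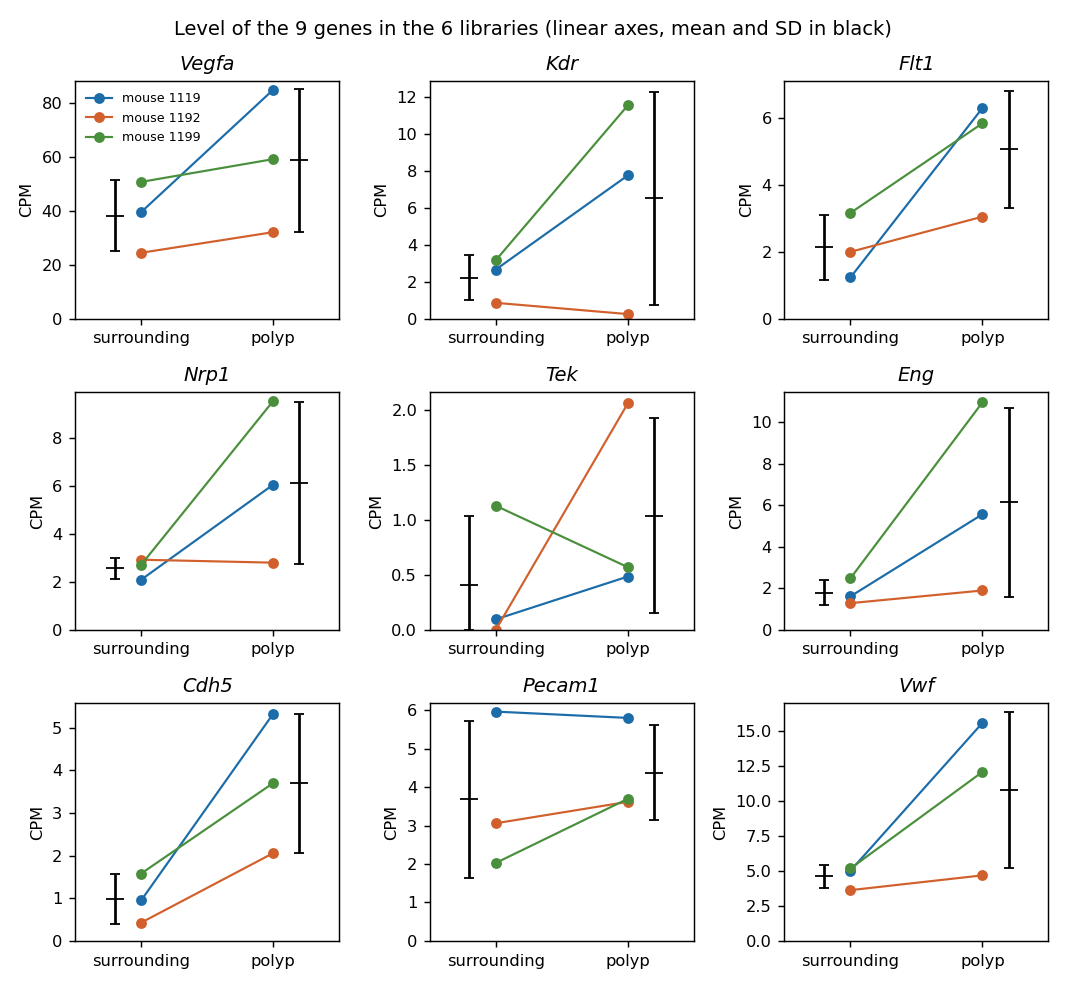
CPM (vertical axes, linear, each gene on its own scale) of the 9 genes in surrounding tissue and polyp; each coloured line joins both samples of 1 mouse, and black marks give mean and SD (n = 3), with the lower bar stopped at 0. The polyp of mouse 1192 was the lowest of the 3 polyps for all genes except Tek, and Cdh5 alone had every polyp above every surrounding sample.

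Vegfa, the ligand (ENSMUSG00000023951), was by far the most abundant of the 9. Its level in surrounding tissue was 39.5, 24.4 and 50.7 CPM in mice 1119, 1192 and 1199 (417, 343 and 225 counts). In the polyps it was 84.9, 32.1 and 59.2 CPM (702, 390 and 416 counts). Each polyp was above its own surroundings, but the groups overlapped: the polyp of mouse 1192 was below the surrounding tissue of mice 1119 and 1199. Over the 3 mice the log2 fold change was 0.58 ± 0.20 (standard error derived from the test statistic; adjusted p = 0.215). Within a mouse the polyp had 2.15 times the surrounding level in mouse 1119 (95% counting interval 1.90 to 2.43), 1.31 times in mouse 1192 (1.13 to 1.52) and 1.17 times in mouse 1199 (0.989 to 1.38). These intervals cover counting error only, and the last includes 1. Epithelial cells are a known source of VEGF-A. Over 15 epithelial markers, with Epcam, Cdh1 and Krt8 among them, the summed level was 4541 to 7553 CPM in surrounding tissue and 7099 to 9440 CPM in polyps, and its part in the Vegfa difference was not tested.

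The other ligands of the family were near the floor. Vegfb summed to 28 counts over the surrounding libraries and 9 over the polyps, Vegfc to 3 and 7, Vegfd to 5 and 4, and Pgf, the placental growth factor that binds Flt1, to 0 and 1. None of these 4 was tested. Vegfa thus supplied nearly all counts of VEGF family ligands in these libraries.

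Kdr, the main signalling receptor (ENSMUSG00000062960), was high in the polyps of 2 mice and low in that of the third. Its counts were 28, 12 and 14 in surrounding tissue of mice 1119, 1192 and 1199 (2.65, 0.854 and 3.16 CPM). In the polyps they were 64, 3 and 81 (7.74, 0.247 and 11.5 CPM). Polyps of mice 1119 and 1199 were above all surrounding samples, whereas the polyp of mouse 1192 was the lowest of the 6 libraries and stood at the floor of 3 counts. Polyp over surroundings gave a ratio of 2.92 for mouse 1119 (counting interval 1.84 to 4.73), 3.65 for mouse 1199 (2.06 to 6.97) and 0.289 for mouse 1192 (0.0523 to 1.07). Over all mice the log2 fold change was 0.88 ± 0.72 (adjusted p = 0.650). Without mouse 1192 it was 1.65 ± 0.41 (adjusted p = 0.0729), and without mouse 1199 it was 0.11 ± 1.32 (adjusted p = 0.988), the lowest and highest adjusted p over its alternatives.

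Flt1, the other kinase receptor (ENSMUSG00000029648), had 13, 28 and 14 counts in surrounding tissue (1.23, 1.99 and 3.16 CPM) and 52, 37 and 41 in the polyps (6.29, 3.04 and 5.83 CPM). Every polyp was above its own surroundings, and the groups overlapped by a small margin, the polyp of mouse 1192 lying just below the surrounding tissue of mouse 1199. This gave a log2 fold change of 1.26 ± 0.58 (adjusted p = 0.375). Mouse 1119 had the widest difference, 5.11 times, with a counting interval of 2.74 to 10.2. In mice 1192 and 1199 the intervals included 1.

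The 2 receptors can be set against each other inside a library, where scaling plays no part. Kdr made up 68.3%, 30.0% and 50% of the summed Kdr and Flt1 counts in surrounding tissue of mice 1119, 1192 and 1199. In the polyps the shares were 55.2%, 7.50% and 66.4%. The exact binomial interval of the polyp of mouse 1192 was 1.57% to 20.4% from 40 counts, below those of the other polyps (45.7% to 64.4% and 57.3% to 74.7%). Both samples of mouse 1192 had a lower Kdr share than any sample of the other mice, and the polyp's share was below that of its surroundings in mice 1119 and 1192 and above it in mouse 1199. No direction was common to the 3 mice, and no test over mice was made.

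**Figure D2:**
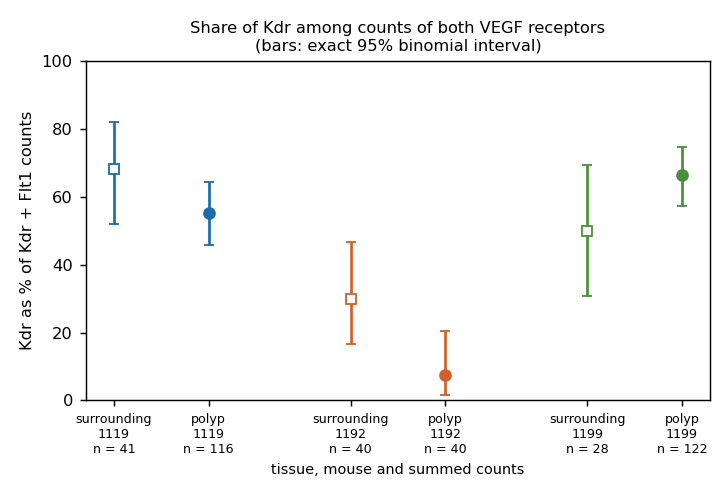
Kdr counts as a percentage of Kdr plus Flt1 counts (vertical axis) in each library, with exact 95% binomial intervals; open squares are surrounding tissue, filled circles are polyps, and n is the summed count. The polyp of mouse 1192, at 7.50%, lies below the intervals of all libraries of the other mice.

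The co-receptor Nrp1 (ENSMUSG00000025810) had 22, 41 and 12 counts in surrounding tissue (2.08, 2.92 and 2.70 CPM) and 50, 34 and 67 in polyps (6.04, 2.80 and 9.53 CPM). As with Kdr, polyps of mice 1119 and 1199 were high. The polyp of mouse 1192, which was at the floor for Kdr, was at the surrounding level for Nrp1. The log2 fold change was 1.08 ± 0.54 (adjusted p = 0.419), and 1.62 ± 0.45 without mouse 1192 (adjusted p = 0.106, the lowest of a range up to 0.827 over its alternatives). Nrp2, the paralogous co-receptor used mainly by lymphatic endothelium and neurons, was at 7.70 ± 2.82 CPM (SD, n = 3) in surroundings and 6.63 ± 2.15 CPM in polyps, with a log2 fold change of -0.22 ± 0.43. Of the 10 VEGF ligands and receptors, 5 were tested, 0 were called and 4 of the 5 had positive values. Plexins and class 3 semaphorins, which share the neuropilins with VEGF-A, showed no common direction: of 7 tested, 3 were positive and 4 negative, 0 were called, and the median was -0.25. Plxnd1, an endothelial semaphorin receptor, was at 1.13 ± 0.61 (adjusted p = 0.471) and Sema3c, a secreted semaphorin, at -0.28 ± 0.17 on the log2 scale.

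Endoglin and VE-cadherin had the largest fitted differences of the 8 tested genes. Eng (ENSMUSG00000026814) counts were 17, 18 and 11 in surrounding tissue (1.61, 1.28 and 2.48 CPM) and 46, 23 and 77 in polyps (5.56, 1.89 and 11.0 CPM). All 3 polyps exceeded their own surroundings, by 3.45, 1.48 and 4.42 times in mice 1119, 1192 and 1199, and the groups overlapped through mouse 1192. Its log2 fold change was 1.50 ± 0.54 (adjusted p = 0.234). Without mouse 1192 it was 1.91 ± 0.45 with an adjusted p of 0.0607, the smallest of any of the 8 genes under any alternative; for Eng these p-values ran up to 0.766. In the annotation 61 of the 4048 exon bases of Eng overlap the oppositely oriented gene Fpgs, whose own counts did not exceed 17 in any library. The ALK1 receptor gene Acvrl1, which pairs with endoglin, was at 2.65 ± 0.916 CPM in surroundings and 5.18 ± 3.12 CPM in polyps (log2 fold change 0.88 ± 0.58, adjusted p = 0.565). Of 12 genes of the endoglin and ALK1 axis 9 were tested, 0 were called, and the median was 0.08, with 5 values above 0 and 4 below. Bmpr2, the type II receptor, was at 0.33 ± 0.21.

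Cdh5 (ENSMUSG00000031871) had 10, 6 and 7 counts in surrounding tissue (0.947, 0.427 and 1.58 CPM) and 44, 25 and 26 in polyps (5.32, 2.06 and 3.70 CPM). It was the 1 gene of the 8 tested in which every polyp lay above every surrounding sample. In this direction 9.84% of all genes tested also showed such a separation. With so few surrounding counts, Cdh5 passed the filter on low counts through its polyps alone. That filter favours genes with such a separation, so the separation is no added support for a difference. Its fitted log2 fold change was 1.99 ± 0.74 (adjusted p = 0.252). The ratios were 5.62 in mouse 1119 (counting interval 2.78 to 12.5), 4.81 in mouse 1192 (1.93 to 14.3) and 2.34 in mouse 1199 (0.991 to 6.39). Unlike Kdr and Nrp1, Cdh5 was thus high in the polyp of mouse 1192 relative to its own surroundings.

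Pecam1, the other junctional marker (ENSMUSG00000020717), showed the smallest difference. Its counts were 63, 43 and 9 in surrounding tissue (5.97, 3.06 and 2.03 CPM) and 48, 44 and 26 in polyps (5.80, 3.62 and 3.70 CPM). Ratios of polyp to surroundings were 0.972, 1.18 and 1.82 in mice 1119, 1192 and 1199, and all 3 counting intervals included 1. Its log2 fold change was 0.32 ± 0.47 (adjusted p = 0.815). CD31 is shared with leukocytes and platelets. The summed level of 13 leukocyte markers was 29.6 to 52.4 CPM in surroundings and 23.4 to 62.5 CPM in polyps, with 0 of 10 tested markers called and Ptprc, the common leukocyte antigen CD45, at 14.0 ± 4.45 and 11.2 ± 6.59 CPM. The part of these cells in the Pecam1 level was not tested.

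Relative to Pecam1 in the same library, the other genes varied widely. Cdh5 had 0.159, 0.140 and 0.778 counts per Pecam1 count in surroundings and 0.917, 0.568 and 1.00 in polyps, higher in all 3 mice. Eng had 0.270, 0.419 and 1.22, and 0.958, 0.523 and 2.96 in polyps, and Vwf 0.841, 1.19 and 2.56, and 2.69, 1.30 and 3.27 in polyps, also higher in each mouse. Flt1 per Pecam1 differed by 2.39 on the log2 scale in mouse 1119, 0.37 in mouse 1192 and 0.02 in mouse 1199. For Vegfa the difference was 1.14, 0.15 and -0.64. Kdr per Pecam1 differed by 1.58, -2.03 and 1.00 in mice 1119, 1192 and 1199, and Nrp1 by 1.58, -0.30 and 0.95. Tek per Pecam1 differed by 2.39 in mouse 1119 and -1.85 in mouse 1199, and had 0 Tek counts to divide in surroundings of mouse 1192. The sign therefore differed between mice for Vegfa, Kdr, Nrp1 and Tek. The surrounding tissue of mouse 1199 had 9 Pecam1 counts, and these ratios are correspondingly coarse.

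Vwf (ENSMUSG00000001930) had the most counts in all, over the 6 libraries, of the 8 genes other than Vegfa. It had 53, 51 and 23 counts in surrounding tissue (5.02, 3.63 and 5.18 CPM) and 129, 57 and 85 in polyps (15.6, 4.69 and 12.1 CPM). Polyps of mice 1119 and 1199 were 3.11 and 2.33 times their surroundings, with counting intervals above 1, and that of mouse 1192 was 1.29 times (0.869 to 1.92). The log2 fold change was 1.08 ± 0.37 (adjusted p = 0.212), the smallest adjusted p of the 8 genes over all 3 mice. Without mouse 1192 it was 1.41 ± 0.34 (adjusted p = 0.0688, with a range up to 0.659 over its alternatives). Von Willebrand factor is also a platelet protein. Of 10 platelet markers, 4 had at most 3 counts in every library, Ppbp summed to 1 count over surroundings and 0 over polyps, Pf4 to 8 and 3, and Itga2b to 25 and 1. Gp9 had 1 count in surroundings and 23 in polyps, all of the latter in mouse 1192, and Gp1ba had 25 and 13. The 2 tested platelet markers lay on opposite sides of 0, and neither was called. Gp1bb, a platelet glycoprotein gene, had 40 and 18 counts (log2 fold change -1.29 ± 1.42, adjusted p = 0.744), and Itgb3, an integrin gene shared with endothelial cells, was at 3.34 ± 0.371 and 9.98 ± 3.24 CPM (log2 fold change 1.51 ± 0.36, adjusted p = 0.0751). Blood content differed between samples as well: 6 red blood cell genes summed to 2.21 to 35.5 CPM in surroundings and 16.8 to 58.8 CPM in polyps, and their part in the endothelial values was not tested.

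Tek, the angiopoietin receptor gene (ENSMUSG00000006386), was the rarest of the 9. Its counts were 1, 0 and 5 in surrounding tissue and 4, 25 and 4 in the polyps of mice 1119, 1192 and 1199. The polyp of mouse 1192, the lowest of the 3 polyps for the other 8 genes, held most of the Tek counts. It was 9.63-fold above its surroundings when the 0 counts there are set to the floor of 3 counts for that library. With the 0 counts kept, the lower end of the counting interval was 7.27. In mouse 1199 the polyp was the lower sample. Fitted without the filter on low counts, the log2 fold change was 2.23 ± 2.30 (adjusted p = 0.914). Angpt2, the TIE2 ligand released by activated endothelium, was at 1.59 ± 0.894 and 3.30 ± 1.24 CPM (log2 fold change 1.02 ± 0.77, adjusted p = 0.620). Tie1, the partner receptor, was at 0.553 ± 0.484 and 2.62 ± 0.942 CPM (2.71 ± 1.23, adjusted p = 0.366), and Ptprb, a phosphatase that restrains TIE2, at 4.26 ± 1.87 and 11.7 ± 3.42 CPM (1.52 ± 0.34, adjusted p = 0.0577). In this axis 3 of 6 genes were tested and 0 were called. All 3 were higher in the polyp of every mouse, where 19.7% of all genes were. Tie1 had 8, 0 and 4 counts in surroundings and passed the filter through its polyps alone, which favours that direction.

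**Figure D3:**
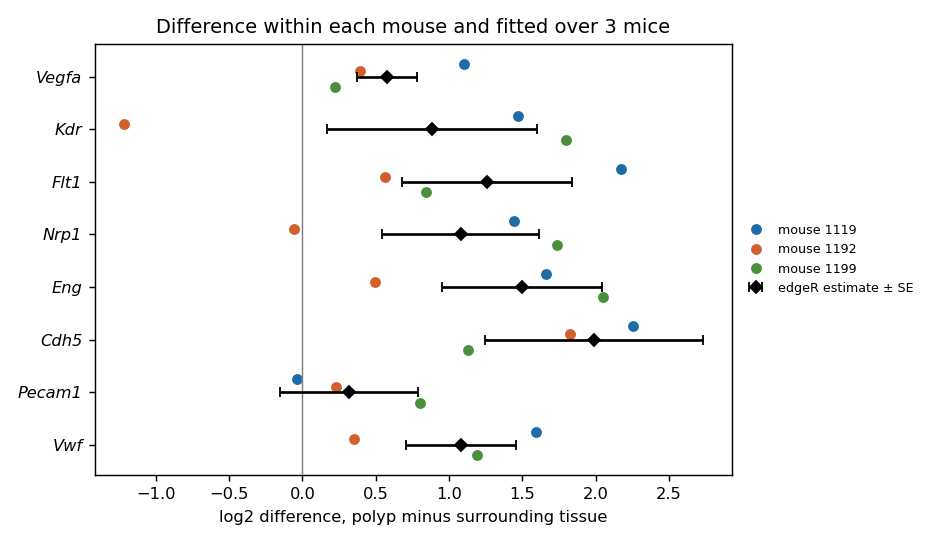
Log2 difference of polyp minus surrounding tissue (horizontal axis) for the 8 tested genes; circles are single mice, computed on log2 CPM with a prior count of 2, and black diamonds are the edgeR estimates with standard errors. Kdr in mouse 1192, at -1.22, is the point farthest to the left, and the estimates run from 0.32 to 1.99.

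The 3 mice differed in how far these genes stood apart. For the 8 tested genes the median log2 difference stood at 1.53 in mouse 1119, 0.37 in mouse 1192 and 1.16 in mouse 1199, while that of all genes tested was 0.01, -0.02 and 0.02. Of the 9 genes, 8, 7 and 8 had a ratio above 1 in these mice, and for 7, 3 and 4 the counting interval lay above 1; for 0 did it lie below 1. The genes higher in the polyp of every mouse were Vegfa, Flt1, Vwf, Eng and Cdh5, 5 of 8 tested, where 19.7% of all genes were. Of these, Cdh5 passed the filter on low counts through its polyps alone. Leaving out mouse 1192 raised the number with an unadjusted p under 0.05 from 4 to 7, and leaving out mouse 1119 or 1199 lowered it to 0 and 1; the number called stayed 0 each time.

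Per kilobase of exon, the level of Vegfa exceeded that of every other member in each tissue. It was 8.92 ± 3.08 CPM per kilobase in surroundings and 13.7 ± 6.16 in polyps (SD, n = 3). In surroundings the next were Pecam1 (0.592 ± 0.328) and Eng (0.442 ± 0.153), then Vwf (0.287 ± 0.0531), Nrp1 (0.263 ± 0.0443), Kdr (0.246 ± 0.134), Cdh5 (0.234 ± 0.137), Flt1 (0.157 ± 0.0718) and Tek (0.0864 ± 0.133). In polyps the order after Vegfa was Eng (1.52 ± 1.13), Cdh5 (0.878 ± 0.388), Kdr (0.720 ± 0.635), Pecam1 (0.702 ± 0.199), Vwf (0.672 ± 0.347), Nrp1 (0.626 ± 0.344), Flt1 (0.374 ± 0.130) and Tek (0.220 ± 0.188). Below Vegfa, each gene's range over the 3 mice overlapped that of the next in the order in both tissues, so neighbouring places are not distinct. Genes farther apart in the order could differ: Pecam1 and Eng lay above Flt1 in all surrounding samples, and Eng lay above Flt1 in polyps by a narrow margin (lowest 0.467 against highest 0.466). Lengths came from GENCODE M21, which may not be the annotation the authors counted on.

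Other endothelial genes showed a similar spread. Of 35 further endothelial markers 14 were tested, 0 were called, 10 had positive and 4 negative values, and the median was 1.50. With edgeR, 4 of the 14 had an unadjusted p under 0.05, all higher in polyps, where 8.29% of all genes tested were. Plvap, 1 of the 4, passed the filter on low counts through its polyps alone, which favours that direction. Cd93, an endothelial glycoprotein receptor, had 14, 2 and 14 counts in surroundings and 91, 62 and 64 in polyps of mice 1119, 1192 and 1199 (log2 fold change 2.96 ± 0.66, adjusted p = 0.0540). Ptprb, in this list as well, had 46, 33 and 27 against 84, 114 and 110 counts. Cd34, a sialomucin of capillary endothelium and some stromal cells, was at 1.53 ± 0.313 and 4.94 ± 1.28 CPM (1.64 ± 0.57, adjusted p = 0.215). The 4 negative values were those of Mmrn2 (-1.58 ± 1.26), Tspan18 (-1.49 ± 1.04), Fli1 (-0.73 ± 1.66) and Clec14a (-0.22 ± 0.58). Of these, Tspan18 was lower in the polyp of every mouse. All 3 polyps lay above all 3 surrounding samples for 6 of the 14, where 9.84% of all genes tested showed this. Cd93, Ptprb and Cd34 were among the 6, and the polyp of mouse 1192 shared in this. So were Plvap (11, 0 and 2 counts in surroundings) and Tie1 (8, 0 and 4). These last passed the filter on low counts through their polyps alone, which favours such a separation. Among defining markers that did not reach the test, Cldn5 summed to 11 counts in surroundings and 0 in polyps, Emcn to 12 and 16, Esam to 8 and 24, Erg to 3 and 5, and Sox17 to 0 in all libraries. Several defining endothelial markers were therefore at or near the floor in both tissues.

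Of 8 tested genes of sprouting endothelium and its Notch signalling, 6 had positive and 2 negative values, with a median of 1.13. Of these 8, 1 was called, where 2.76% of all genes tested were. Nid2, a basement membrane nidogen, rose by 2.00 ± 0.40 on the log2 scale (adjusted p = 0.0392; 2.36 ± 0.194 CPM in surroundings, 9.74 ± 2.80 in polyps), the called gene of this list. It was not called without mouse 1119 or without mouse 1199. Dll4, the Notch ligand of tip cells that VEGF-A induces, had 16, 39 and 9 counts in surroundings and 48, 119 and 44 in polyps (log2 fold change 1.79 ± 0.43, adjusted p = 0.0754). The polyp was higher by 3.83, 3.52 and 3.08 times in the 3 mice, each with a counting interval above 1. The 2 negative values were those of Unc5b, a netrin receptor gene, at 60.6 ± 8.88 CPM in surroundings and 42.1 ± 9.44 in polyps and lower in every mouse with no overlap (-0.55 ± 0.21, adjusted p = 0.270), and Kcne3, a potassium channel subunit gene, at -0.62 ± 0.64. Esm1 and Apln, 2 tip cell genes singled out after their values were seen, did not pass the filter. Esm1 had 1, 0 and 6 counts in surroundings and 56, 1 and 64 in polyps. Fitted by edgeR without the filter, its log2 fold change was 3.95 ± 1.02 (adjusted p = 0.00479), in a run that called 753 of 21370 genes. Apln, the ligand apelin, had 0, 1 and 0 against 13, 4 and 32 counts (4.79 ± 1.95, adjusted p = 0.236). Like Kdr, both were high in the polyps of mice 1119 and 1199 and near the floor in that of mouse 1192. Among 12 genes of VEGF signalling and response, 8 were tested, 0 were called and all 8 were positive, with a median of 1.18. A positive value was held by 48.4% of all genes tested. Besides Dll4, the smallest p-values were those of Plcg1, a phospholipase activated by VEGFR2 and other receptors (1.11 ± 0.28, adjusted p = 0.0880), and Nr4a1, a nuclear receptor gene that many stimuli induce (2.37 ± 1.09). Nr4a1 had 8, 13 and 0 counts in surroundings and passed the filter through its polyps alone, which favours that direction.

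**Figure D4:**
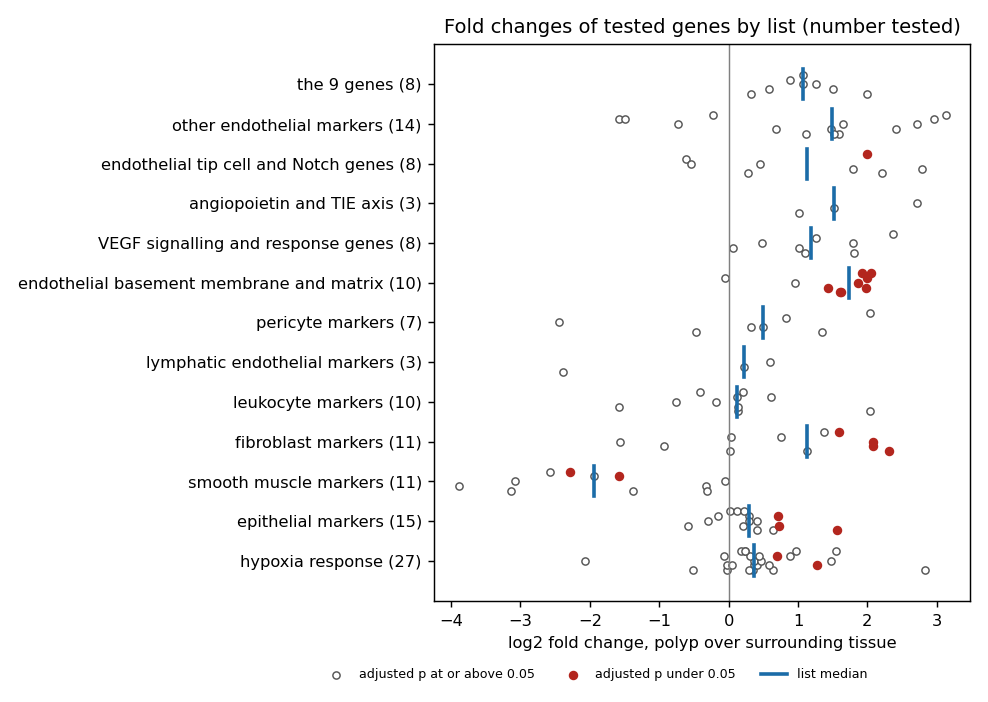
Log2 fold change of polyp over surrounding tissue (horizontal axis) for the tested genes of 13 lists; each circle is a gene, filled red where the adjusted p was under 0.05, blue bars are list medians and the number tested is in parentheses. The 9 genes and other endothelial markers lie mostly to the right of 0 with no filled circle, the matrix list has 8 filled circles on the right and smooth muscle 2 on the left.

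None of the genes of vessel subtypes was called by edgeR: 3 lymphatic, 4 vein and adhesion and 1 artery gene were tested, and 0 of these had an unadjusted p under 0.05. Among 6 lymphatic endothelial genes with a row, 3 were tested and 0 called. Mmrn1 had 45, 21 and 14 counts in surroundings and 1, 10 and 5 in polyps (log2 fold change -2.39 ± 1.10, adjusted p = 0.374), while the lymphatic transcription factor gene Prox1 (0.60 ± 1.34) and Pdpn, also made by fibroblasts (0.23 ± 0.95), were uneven. Flt4, the receptor for VEGF-C, summed to 47 counts in surroundings and 23 in polyps, and Lyve1 to 42 and 17. Among vein and adhesion genes 4 of 8 were tested, 0 were called and the median was 0.71. Icam1 (3.21 ± 1.51, adjusted p = 0.385) and Vcam1 (1.21 ± 0.85) are inducible by inflammation, and Ephb4, a receptor of veins and of epithelium, was at 0.21 ± 0.32. The artery gene Efnb2 was at 144 ± 14.5 and 120 ± 9.98 CPM (-0.26 ± 0.15), far above the level of the 8 receptors and endothelial markers.

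Pericytes, the contractile cells around capillaries, were represented by 7 tested genes, of which 0 were called and 5 were positive, with a median of 0.50. Pdgfrb, the receptor that recruits them and is also made by fibroblasts, was at 4.67 ± 0.717 and 12.5 ± 4.76 CPM (log2 fold change 1.35 ± 0.33, adjusted p = 0.0832). Notch3 was at 2.04 ± 0.94 and Rgs5 at 0.50 ± 0.22 on the log2 scale. The 2 negative values were those of Kcnj8 (-2.45 ± 1.38) and Abcc9 (-0.47 ± 0.31), both lower in the polyp of every mouse. The summed level of the list was 43.1 to 69.0 CPM in surroundings and 64.9 to 90.3 CPM in polyps. Of the vessel-associated matrix list, 8 of 10 tested genes were called higher and 0 lower, where 1.72% of all genes tested were called as higher. The 8 were Sparc, Col4a2, Nid1, Lamb1, Col4a1, Lama5, Lamc1 and Nid2, with a list median of 1.74. Without mouse 1119 or mouse 1199 the number was 3 each time, and without the pairing 5. Lama4, the laminin chain most tied to endothelium, was at 4.64 ± 1.10 and 5.24 ± 3.12 CPM (-0.05 ± 0.58). These matrix genes are also made by fibroblasts and epithelium. Of 11 tested fibroblast markers 4 were called higher (Col3a1, Col1a2, Col1a1 and Pdgfra). Their list summed to 83.4 to 169.5 CPM in surroundings and 224 to 588 CPM in polyps. Of 11 tested smooth muscle markers 2 were called lower (Tagln and Synpo2), where 1.04% of all genes tested were. Their list summed to 286 to 306 CPM in surroundings and 83.4 to 156 CPM in polyps. Fibroblast calls numbered 3, 6 and 3 without mouse 1119, 1192 or 1199, and smooth muscle calls 2, 4 and 1; their part in the endothelial values was not tested.

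Hypoxia response genes, a list that includes Vegfa, had 2 called of 27 tested, both higher. Over all genes tested 1.72% were called as higher, which is the share to set beside each list of this paragraph. Ero1l, an oxidase of the endoplasmic reticulum, rose by 1.28 ± 0.16 on the log2 scale (adjusted p = 0.0113; 48.9 ± 16.2 CPM in surroundings, 115 ± 27.3 in polyps) and Egln3, a HIF prolyl hydroxylase gene, rose by 0.70 ± 0.15 (adjusted p = 0.0453). The list had 22 positive values and a median of 0.37, below the 0.58 of Vegfa itself. Without any 1 mouse 1 gene was called, and without the pairing 0. Epithelial markers had 3 of 15 called, the keratin genes Krt18, Krt19 and Krt8, all higher, with 1 called without any 1 mouse and 0 without the pairing. Immediate early genes, which tissue handling also induces, had 3 of 10 called (Dusp1, Fos and Egr1), all higher, with 1 called without the pairing and 0, 3 and 0 called without mouse 1119, 1192 or 1199.

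The genes whose pattern over the 6 libraries was most like that of each profile were found by Pearson's r of log2 CPM among 5819 genes of at least moderate abundance. For the mean of the 6 tested endothelial markers (Kdr, Flt1, Vwf, Eng, Cdh5 and Pecam1) they were Col4a1, a collagen chain of basement membranes (r = 0.995), Fbn1, the fibrillin of elastic microfibrils (0.982), Agps (0.981), Ythdf3 (0.979) and Timp3 (0.978). Col4a1 alone among these 5 was called (log2 fold change 1.62, adjusted p = 0.0153). For Vegfa they were Ino80d (0.993), Fbxo30 (0.988), Napg (0.985), Vps37a (0.980) and Camk2d (0.971), none of them called and none with a log2 fold change above 0.35. Within the 8 tested genes, r with Vegfa was 0.917 for Vwf, 0.875 for Cdh5, 0.839 for Kdr and 0.308 for Pecam1. The pair most alike was Eng and Nrp1 (0.951), and Pecam1 had the lowest values, from -0.02 with Flt1 to 0.440 with Vwf. These are descriptions over 6 libraries that share 3 animals and their depth.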

How the data were processed

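The authors deposited raw, unnormalized counts per gene for each of the 6 samples, per the file headers. Per the labels' protocols, RNA was enriched for microbial RNA with MICROBEnrich, a step that takes out mammalian RNA, and depleted of rRNA before libraries were amplified by PCR, so counts reflect what mouse RNA remained. The submitters' processing notes name HTSeq 0.5.3p9, Bowtie 0.12.9 and TopHat2 2.0.7. Settings, strand, genome build and annotation were not given in the sources used here. GENCODE M21 gave symbols (32919 of 37991 identifiers) and exon lengths.

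Tests used edgeR 4.0.16 in R 4.3.3 (robust quasi-likelihood, TMM factors 0.593 to 1.43, filterByExpr with a minimum count of 10, two-sided, Benjamini-Hochberg adjustment over 10960 genes, called under 0.05). Mouse was a block, since both samples of a number come from the same animal; their deviations correlated at 0.0719, 0.127 and 0.159. Replicates were distinct libraries: chi-square over degrees of freedom ran from 19.6 to 68.6. DESeq2 1.42.0, limma-voom (limma 3.58.1), other scalings and filters, no block and leaving out each mouse were alternatives. The script was tested on simulated data. Counting intervals are exact binomial at 95%, for counting error only. Members and gene lists were chosen with earlier results of these data known. The rule for named genes takes the 9 genes, the called genes of each list or up to 3 with the smallest p. It also takes the 5 genes most like each profile (mean log2 CPM of at least 3, prior count 2). Untested ligands and markers are given by counts. Esm1, Apln, Unc5b, Kcne3, Nrp2, Lama4 and Ptprc were named after their values were seen. So were Plvap, Mmrn2, Tspan18, Fli1, Clec14a, Kcnj8 and Abcc9.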

Additional observations from a re-analysis of the deposited data

How the results depend on the processing

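For the 8 tested genes, all 90 refitted log2 fold changes stayed positive and none was called under any alternative run, over 12 alternatives (a mean of at least 5 CPM kept only Vegfa and Vwf). The number called was 0 in each, and the smallest adjusted p of any of them was 0.0607. Their median log2 fold change ran from 0.76 to 1.60 with a mouse left out and was 1.26 without the replicate block for the mouse. The number with an unadjusted p under 0.05 was 2 with a mean of at least 5 CPM, 5 without the block and 0 to 7 with a mouse left out. Over all genes, the 303 calls became 87 with no replicate block, 753 with no filter on low counts, 541 with DESeq2, 411 with limma-voom, 445 with a mean of at least 5 CPM, and 83 to 281 with a mouse left out; the cause was not tested. Of 610 refits of 53 of the other named genes, run after seeing the data, 3 reversed. With a mouse left out, Prox1 ran from -0.52 (without 1119) to 1.65 and Pdpn from -0.90 (without 1119) to 1.08. Ephb4 ran from -0.064 (without 1192) to 0.47. Scaling moved the median of all genes by less than 0.1 on the log2 scale. Depth limits the endothelial values: apart from Vegfa, the genes had 0 to 63 counts per library in surrounding tissue.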
